A study of Mus musculus with 143 samples.

Results

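The type I interferon-stimulated antiviral genes described here are 37 mouse genes that were given as a list of symbols. The list took in the IFIT, Mx and OAS families, the ISG15 system, the transcription factors Irf7, Irf9 and Stat2, and other interferon-induced restriction factors and sensors. Members were found by matching the Ensembl identifiers of the expression table to symbols, and 37 of 37 were present among 54232 identifiers. No measured value entered the choice of members, although it was made with earlier results of these data known.

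Total RNA was sequenced from 143 subcutaneous tumours of 11 mouse models, each grown from a single implanted cell line. Every model contributed 3 untreated baseline tumours, 5 tumours from mice given a mouse IgG1 isotype control antibody, and 5 tumours from mice given muDX400, which binds and blocks PD-1, an inhibitory receptor on T cells. The antibodies were injected on days 11 and 15 after implantation and those tumours were excised on day 19, called 8 days in the labels, which give no day for the baseline tumours and no strain, age or sex of the hosts. By the labels, response to PD-1 blockade is High in MC38, MBT2 and CM3, Partial in CT26, EMT6, MB49 and RENCA, and Resistant in 4T1, B16F10, LL2 and TC1.

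Type I interferons (the interferon-alpha subtypes and interferon-beta) bind the receptor pair IFNAR1 and IFNAR2. The receptor kinases JAK1 and TYK2 then act on STAT proteins, and STAT2 and IRF9 take part in the factor ISGF3, which binds interferon-stimulated response elements. The genes switched on in this way degrade, trap or block the translation of viral RNA, and many of them also respond to interferon-gamma, the cytokine of activated T and NK cells, which acts through gamma-activated sites.

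Library depth, inferred from the value that 1 fragment adds to a gene, ran from 11.4 M to 50.3 M fragments with a median of 21.0 M (M, mega). The 9 untreated libraries from TC1, RENCA and B16F10 were the deepest, from 36.6 M upward, and the other 134 held at most 25.5 M. Levels are FPKM, fragments per kilobase of transcript scaled to library size, and differences are on the log2(FPKM + 1) scale, which understates the change of genes at low levels. As a check of the labels, 5 melanocyte genes (Tyr, Dct, Pmel, Mlana and Tyrp1) summed to 5357 FPKM or more in every library of CM3 and to 8117 or more in those of B16F10, a melanoma line, while no library of the other 9 models exceeded 7.21. Every library was taken as the tumour of a separate mouse, which the labels do not state, so p-values measure the spread between these samples. In bulk tumour RNA, a change in the number of cells that express a gene and a change in RNA per cell cannot be told apart.

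The promoter letters show which of the members hold the cores of interferon-related motifs. RefSeq promoter windows of GRCm38.p6, which run from 250 bases before to 50 bases after the annotated start, were present for 27 of the 37 members. The core of the interferon-stimulated response element was searched as GAAA, any 2 bases and GAAA on both strands, overlapping matches included, and was found in 13 of the 27 members (48.1%) against 3.99% of the 27025 genes in the same table. A core of the gamma-activated site, TTCNNNGAA, was found in 7 of the 27 (25.9%) against 9.55% of those genes. Among the 14 interferon-gamma genes outside the members that had a window, 8 held the response element core and 6 the gamma-activated site core. A match is a description of letters, not a measured binding site. The 200 bases before the start are given 5′ to 3′ on the gene's strand for 5 members, with every response element match in capitals. Isg15 is shown because its 3 matches overlap, and Ifit1, Ifit3 and Ifit3b because each holds a pair. Oas1a, Oas1g and Bst2 hold a pair as well. Samhd1 is shown because it had the largest rise under muDX400 in MC38 and holds no response element match. Its window does hold a gamma-activated site core, at -235 bases from the start and outside the printed bases.
Isg15, chr4:156200819-156201018, minus strand: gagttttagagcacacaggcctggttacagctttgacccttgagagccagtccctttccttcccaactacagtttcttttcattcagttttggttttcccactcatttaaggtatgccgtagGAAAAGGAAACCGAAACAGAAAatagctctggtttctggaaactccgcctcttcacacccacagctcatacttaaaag
Ifit1, chr19:34640689-34640888, plus strand: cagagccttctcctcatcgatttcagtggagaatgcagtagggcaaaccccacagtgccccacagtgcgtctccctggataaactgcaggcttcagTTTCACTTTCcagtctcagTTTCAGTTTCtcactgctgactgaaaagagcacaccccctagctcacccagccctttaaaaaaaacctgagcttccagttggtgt
Ifit3, chr19:34583329-34583528, plus strand: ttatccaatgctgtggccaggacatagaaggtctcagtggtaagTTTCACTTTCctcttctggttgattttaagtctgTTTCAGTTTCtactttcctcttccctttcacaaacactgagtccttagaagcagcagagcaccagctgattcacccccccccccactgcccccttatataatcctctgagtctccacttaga
Ifit3b, chr19:34607757-34607956, plus strand: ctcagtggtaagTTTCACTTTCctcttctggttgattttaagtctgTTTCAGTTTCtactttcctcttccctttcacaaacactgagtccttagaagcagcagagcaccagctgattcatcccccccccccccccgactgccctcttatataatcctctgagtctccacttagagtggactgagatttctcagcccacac
Samhd1, chr2:157135097-157135296, minus strand: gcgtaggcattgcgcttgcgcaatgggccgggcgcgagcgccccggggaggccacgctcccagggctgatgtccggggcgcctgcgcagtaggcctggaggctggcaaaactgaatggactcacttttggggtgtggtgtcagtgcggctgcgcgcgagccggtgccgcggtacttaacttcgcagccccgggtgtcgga
In Ifit1, Ifit3 and Ifit3b the matches lie on the opposite strand, so that they read TTTC, 2 bases and TTTC here. Compared without gaps, the windows of Ifit3 and Ifit3b were identical at 75% of 268 bases when shifted by 32. Those of Oas1a and Oas1g were identical at 69.5% of 298 when shifted by 2. A run of C differs in length between the printed stretches of Ifit3 and Ifit3b. The letters after it fall out of step at that shift, which lowers the share. Matches in 9 of the other members lay between 222 bases before and 32 bases after the start. No RefSeq window was at hand for Dhx58, Mx1, Mx2, Oas1b, Oas2, Parp14, Parp9, Rtp4, Usp18 and Zbp1.

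**Figure D1:**
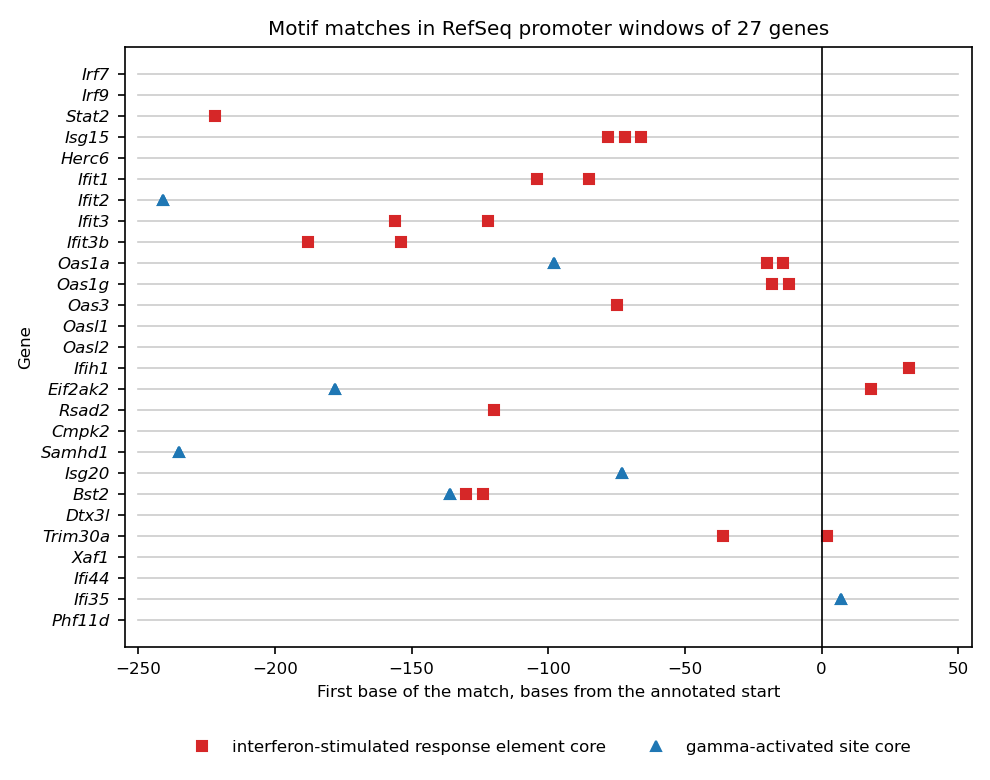
Positions of motif matches in the RefSeq windows of 27 members (rows), in bases from the annotated start (horizontal axis); squares are response element cores and triangles gamma-activated site cores. Isg15 holds 3 squares close together, and 14 of the rows hold no square.

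The sequences also limit which members can be measured apart. Of the 50-base stretches in the annotated transcripts of Oas1a, 57.6% also occur in Oas1g, and of those of Ifit3, 51.2% occur in Ifit3b, so the split of fragments between these gene pairs is uncertain. In Herc6 and Rtp4 the shared portion with other annotated genes was 12.5% and 11.6%, and in each of the other members it was below 10%, apart from Oas1g (45.7%) and Ifit3b (45.0%).

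Among tumours given the isotype antibody, the level of the antiviral genes varied from model to model. All isotype libraries of a model carry sample numbers of a single block, and not all models share a block. A difference of handling between blocks and a difference between models of different blocks cannot be told apart. Over the isotype groups, Bst2, which tethers budding virions to the cell surface, had the highest mean (272 FPKM), followed by Samhd1, a deoxynucleotide hydrolase (70.2), and Isg15, a ubiquitin-like modifier (50.7). Mx2 (2.92), Ifit3b (3.40) and Oas1b (4.62) had the lowest. The highest and lowest model means of a member differed between 3.60-fold for Ifi35 and 75.0-fold for Ifi44, an interferon-induced gene at 0.50 FPKM in B16F10 and 37.5 in 4T1. LL2 or B16F10 had the lowest mean for 36.4% of the 13589 genes with a mean of at least 1 FPKM in at least 3 models. The same held for 36 of the 37 members, and both stood in the 2 lowest places for 29. The exception was Isg20, an RNA exonuclease, which was lowest in CM3 (3.04 ± 1.37 FPKM, SD, n = 5) and highest in MB49 (58.9 ± 2.99). For 6 members (Ifit1, Isg15, Usp18, Mx1, Mx2 and Rtp4) every isotype library of LL2 and B16F10 lay below all 45 libraries of the other models. This held for 0.427% of the same 13589 genes. These counts describe models that were picked after their levels were seen and carry no test.

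Isg15 shows the order. Its isotype mean was 6.90 ± 2.85 FPKM in LL2, 9.08 ± 7.27 in B16F10 and 26.9 ± 2.82 in CM3 (SD, n = 5 in every model). It reached 38.3 ± 5.0 in MB49, 39.9 ± 9.32 in CT26, 60.1 ± 3.79 in MBT2 and 60.3 ± 14.9 in TC1. The top of the order was held by 4T1 with 70.9 ± 7.63, MC38 with 78.6 ± 24.2, RENCA with 78.9 ± 22.7 and EMT6 with 87.8 ± 15.4. LL2 (3.06 to 9.89) and B16F10 (4.64 to 21.9) overlapped, and CM3 began above both at 24.0. CM3 (up to 30.7) overlapped CT26 (from 28.9) but not MB49 (from 32.9), and MB49 and CT26 overlapped. CT26 (up to 52.1) overlapped TC1 (from 47.1) but not MBT2 (from 55.3), and from MBT2 upward all neighbours in the order overlapped. Zbp1, a sensor of Z-form nucleic acid, ranged from 2.62 ± 1.28 FPKM in LL2 to 86.4 ± 25.7 in MC38, and Mx1, a dynamin-like GTPase that traps viral nucleocapsids, from 0.359 ± 0.286 in B16F10 to 9.71 ± 3.97 in EMT6. In the isotype tumours T-cell markers (8 genes, summed) lay at 0.628 to 3.40 FPKM in LL2 and 0.316 to 8.56 in B16F10. They lay at 12.0 to 23.7 in MC38. The sums of TC1, given with the baseline comparison below, overlapped those of LL2, while Isg15 averaged 60.3 FPKM in TC1. Sums of the remaining models are not all listed here. No marker of this list was at 0 in every library of any group. The part of these markers in the order of the models was not tested.

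**Figure D2:**
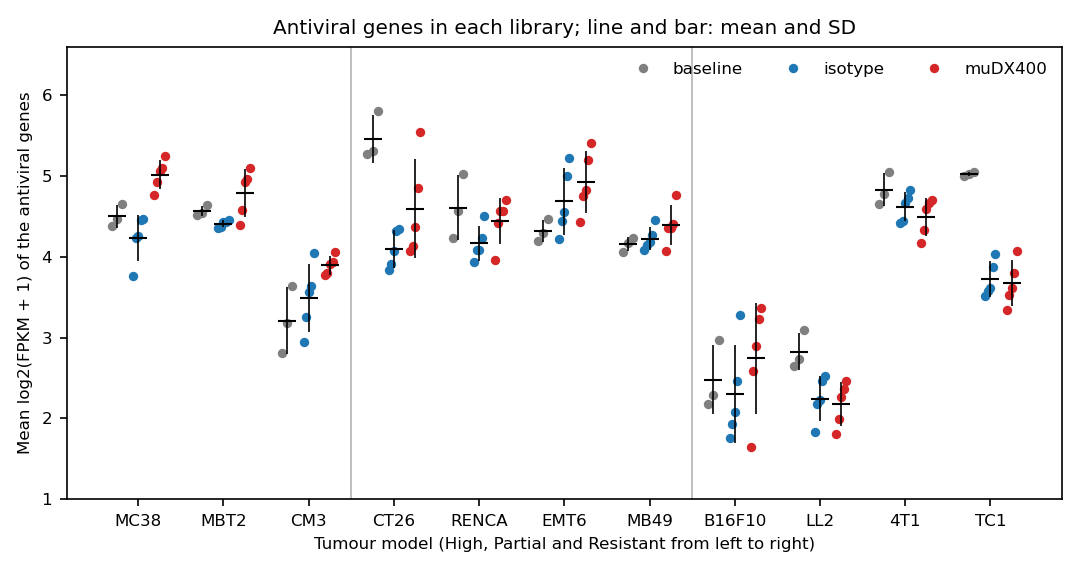
Mean log2(FPKM + 1) of the 37 antiviral genes (vertical axis) in each of the 143 libraries, by model (horizontal axis, High, Partial and Resistant from left to right) and arm; the line and bar are mean and SD. B16F10 and LL2 lie lowest, with isotype means of 2.30 and 2.24, and MC38 is the only model in which all muDX400 libraries lie above all isotype libraries (group means 5.02 and 4.24).

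Whether the level without PD-1 blockade follows the response class was asked over the 11 models, with the model as the replicate and classes scored 0, 1 and 2. In isotype tumours all 37 members had a positive slope, with a median of 0.42 per class step on the log2 scale, but none passed limma with Benjamini-Hochberg adjustment (lowest adjusted p = 0.99), and 4 were below 0.05 unadjusted (Ifi35, Xaf1, Bst2 and Zbp1). No gene of the whole table passed either (0% of 13589). In baseline tumours 31 of 37 slopes were positive, with a median of 0.23, and none was below 0.05 unadjusted in limma. With the block of sample numbers as a term, the isotype and baseline medians were 0.33 and 0.21, and 0 members passed. Leaving out B16F10 lowered the isotype median to 0.23 and turned the baseline median to -0.02, with 15 of 37 slopes positive, and leaving out CM3 raised the baseline median to 0.45. The level of these genes without muDX400 was therefore not shown to differ between classes with 11 models.

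In MC38, a colon carcinoma line of the High class, the antiviral genes rose together under muDX400. Of the 37 members 29 passed the test upward and none downward, where 14.6% of the 12775 genes tested passed upward and 12.7% downward. All 37 had a positive difference, and 34 were below 0.05 unadjusted. The median difference was 0.79 over the members and -0.06 over all genes tested. All 5 muDX400 libraries lay above all 5 isotype libraries for 16 members, against 9.38% of all genes tested, and for no member the other way round, against 7.55%.

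The transcription factors were among them. Irf7, the factor that amplifies interferon production, was at 33.4, 51.3, 53.2, 60.8 and 64.7 FPKM in the isotype libraries of MC38 and at 68.6, 94.6, 105, 121 and 125 after muDX400. The arms did not overlap, and the difference was 0.95 ± 0.20 (SE; limma, adjusted p = 0.0062). Stat2 went from 18.6, 19.1, 24.6, 32.7 and 41.2 FPKM to 59.4, 60.1, 62.0, 65.3 and 71.9, so that every treated tumour exceeded every control. It rose by 1.26 ± 0.19 (limma, adjusted p = 0.00147), and Irf9, which encodes the DNA-binding subunit of ISGF3, rose by 0.68 ± 0.11 (limma, adjusted p = 0.00162).

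In the ISG15 system the conjugate and its enzymes did not all pass. Isg15 itself was at 46.1, 69.3, 80.5, 84.5 and 113 FPKM in isotype tumours and 95.0, 95.8, 100.5, 111 and 114 after muDX400. The highest isotype library reached into the treated range, and the difference of 0.44 ± 0.19 missed the threshold (limma, adjusted p = 0.0974). Usp18, which removes ISG15 from its targets, rose by 0.62 ± 0.16, and Herc6, its main ligase in the mouse, by 0.95 ± 0.25 (limma, adjusted p = 0.0188 and 0.017).

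All 4 IFIT genes, whose products bind viral RNA ends and block translation, passed. Ifit1 was at 8.68, 12.1, 12.6, 18.5 and 20.8 FPKM in isotype libraries and 19.9, 20.9, 26.4, 26.6 and 28.1 after muDX400, with a single treated library inside the control range and a difference of 0.75 ± 0.20 (limma, adjusted p = 0.0203). Ifit2 rose by 1.07 ± 0.26, Ifit3 by 1.01 ± 0.20 and Ifit3b by 0.83 ± 0.20. Among the Mx GTPases, Mx1 was at 5.34, 6.67, 8.83, 9.74 and 11.7 FPKM in controls and 11.2, 13.3, 16.6, 18.3 and 19.6 after treatment. Its arms met only at 11.2 and 11.7, and it rose by 0.85 ± 0.20 (limma, adjusted p = 0.0115), while Mx2 differed by 0.45 ± 0.17 (limma, adjusted p = 0.0695).

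All 7 members of the OAS family, which make or relate to the synthases of the RNase L activator 2-5A, passed as well. Oas2 was at 5.60, 8.98, 9.60, 9.97 and 12.2 FPKM in isotype tumours and 12.9, 13.2, 20.3, 22.7 and 24.3 after muDX400. These arms did not overlap, and the difference was 0.93 ± 0.22 (limma, adjusted p = 0.0109). The family ranged from 0.56 for Oas1b to 1.15 for Oas3, with Oasl1 at 0.59, Oas1g at 0.61, Oas1a at 0.63 and Oasl2 at 0.89 between them.

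Of the 4 sensors of RNA and DNA, Zbp1 and Dhx58, a regulator of RIG-I-like receptors (0.81 ± 0.16), passed. Zbp1 was at 48.3, 80.2, 83.7, 106 and 114 FPKM in isotype libraries and 156, 167, 176, 187 and 212 after muDX400. The rise was 1.10 ± 0.20 (limma, adjusted p = 0.00329). Every treated library stood above the 3 baseline tumours too (112, 113 and 123), which carry sample numbers of a different block. Among the other members shown by library in MC38, the same held for Irf7, Stat2, Samhd1, Parp14 and Dtx3l. It did not hold for Isg15, Ifit1, Mx1, Oas2 and Rsad2, where a baseline library lay above the lowest treated one. Ifih1, which encodes the RNA sensor MDA5, differed by 0.53 ± 0.23 and Eif2ak2, the RNA-dependent kinase PKR, by 0.60 ± 0.30, both short of the threshold (limma, adjusted p = 0.0977 and 0.144).

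Among the factors that restrict nucleotides, RNA or virions, Samhd1 was at 47.2, 51.0, 52.2, 54.1 and 70.4 FPKM in isotype tumours and 105, 147, 149.9, 167 and 174 after muDX400. With no overlap between arms it had the largest rise of the 37 members in MC38, 1.41 ± 0.15 (limma, adjusted p = 0.000852). Rsad2, which encodes viperin, an enzyme that makes a chain-terminating nucleotide, was at 4.20, 5.67, 6.54, 7.88 and 9.04 and then 7.75, 12.2, 13.3, 13.9 and 15.2. A single treated library fell inside the control range, and Rsad2 rose by 0.82 ± 0.20 (limma, adjusted p = 0.0137), as did its genomic neighbour Cmpk2, a mitochondrial nucleotide kinase, by 0.76 ± 0.16. Isg20 differed by 0.01 ± 0.12 and Bst2 by 0.48 ± 0.19 (limma, adjusted p = 0.946 and 0.0776).

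Parp9, Parp14 and Dtx3l encode ADP-ribosyltransferases and a ubiquitin ligase that forms a complex with PARP9, and all 3 passed, Parp9 by 0.85 ± 0.15. Parp14 was at 10.5, 11.4, 13.3, 19.9 and 23.2 FPKM in controls and 26.0, 31.6, 33.1, 37.2 and 40.4 after muDX400. Dtx3l was at 7.49, 11.9, 12.3, 17.0 and 21.5 and then 29.8, 33.4, 33.7, 34.2 and 37.0. Neither gene had overlapping arms, and the rises were 1.11 ± 0.21 and 1.28 ± 0.21 (limma, adjusted p = 0.00387 and 0.00216). Of the remaining induced genes, Trim30a rose by 1.04 ± 0.22, Ifi44 by 0.79 ± 0.24, Rtp4 by 0.73 ± 0.16 and Xaf1 by 0.69 ± 0.20, while Ifi35 (0.32 ± 0.16) and Phf11d (0.44 ± 0.19) did not pass (limma, adjusted p = 0.147 and 0.0933).

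**Figure D3:**
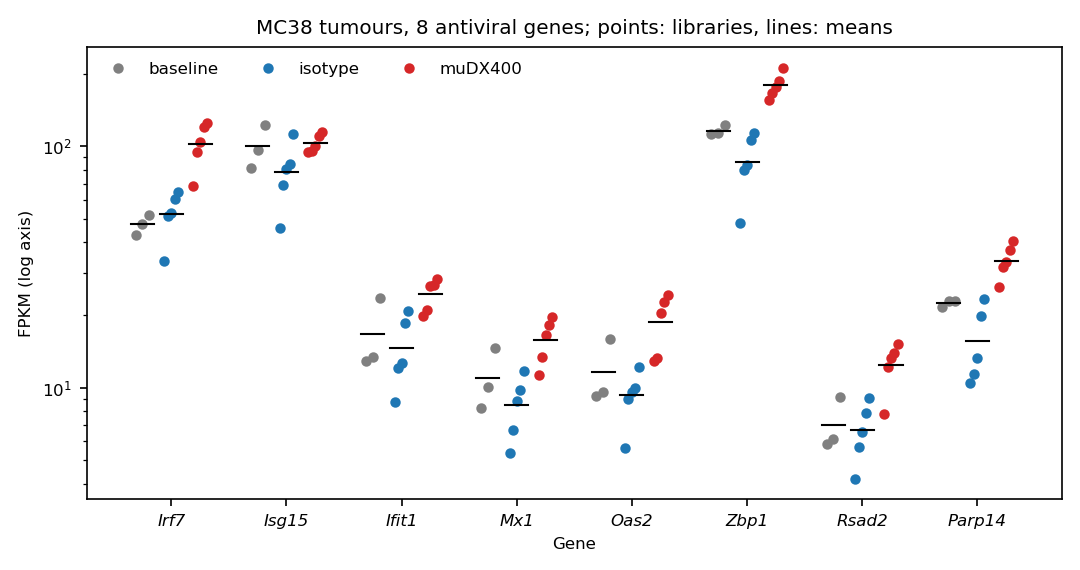
FPKM on a log axis of 8 antiviral genes (horizontal axis) in the baseline, isotype and muDX400 libraries of MC38; points are libraries and lines are group means. The arms do not overlap for Irf7, Oas2, Zbp1 and Parp14, and Isg15 has the closest means (78.6 and 103 FPKM).

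Other genes of the pathway were read from lists that were not part of the members. The ligands were barely measured: all 20 interferon genes of the list (interferon-alpha subtypes, Ifnb1, Ifne, Ifnk, Ifnz, Ifnab and the lambda genes) stayed below 1 FPKM in all 143 libraries, the highest value was 0.692, 4 were listed at 0 throughout, and none reached the test. Ifnb1, which encodes interferon-beta, was above 0 in 72 libraries and at most 0.369 FPKM, and in MC38 it was at 0, 0, 0.107, 0.171 and 0.315 in isotype tumours and 0, 0, 0.0600, 0.0626 and 0.0672 after muDX400. Levels this low rest on few fragments. Of the receptor chains and kinases 4 of 5 tested rose in MC38, among them Ifnar1 (0.39 ± 0.13) and Ifnar2 (0.50 ± 0.11; limma, adjusted p = 0.0442 and 0.00977).

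Interferon-gamma and its targets moved in the same tumours. In MC38, 17 of 18 interferon-gamma genes outside the members passed upward with a median of 1.66. Ifng was at 0.523, 0.993, 1.23, 1.40 and 1.95 FPKM in isotype libraries and 4.84, 7.18, 7.30, 8.59 and 12.8 after muDX400, a rise of 2.02 ± 0.23 (limma, adjusted p = 0.000852). The chemokine gene Cxcl9 rose by 1.53 ± 0.25 and Irf1 by 0.60 ± 0.11. Cell-type markers moved beside them: 8 of 8 T-cell markers passed upward, with summed levels of 12.0 to 23.7 FPKM in isotype and 46.9 to 188 in muDX400 tumours, and 7 of 8 macrophage and monocyte markers, with sums of 697 to 923 and 1153 to 3247. No marker of either list was at 0 in every library of an arm. Siglech and the other plasmacytoid dendritic cell markers summed to 3.61 to 9.99 and 6.14 to 16.5 FPKM, and 0 of the 2 that were tested passed. The part of these cells in the antiviral gene levels was not tested.

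RENCA was the only other model with members past the threshold. Oas2 was at 3.78, 4.10, 5.73, 6.77 and 7.94 FPKM in isotype tumours and 8.05, 11.8, 16.1, 18.5 and 20.2 after muDX400, a rise of 1.23 ± 0.26 (limma, adjusted p = 0.0318). Oasl2 was at 26.0, 32.0, 32.5, 33.9 and 37.2 and then 36.9, 53.2, 61.8, 64.4 and 64.5, a rise of 0.76 ± 0.17 (limma, adjusted p = 0.037), with the arms touching in a single pair of libraries. These were 2 of 37 members where 2.28% of the 12664 genes tested passed upward and 0.284% downward. All treated libraries lay above all controls for Oas2 and for Zbp1, against 3.58% of all genes tested. Zbp1 was at 54.6, 75.5, 79.9, 90.8 and 118 and then 120.0, 128, 129.7, 135 and 177 FPKM, with an adjusted p in limma of 0.0688. Leaving out isotype replicate 3 or 5, or muDX400 replicate 1, 2 or 4, left 0 members past the threshold, and leaving out isotype replicate 1 left 1 and lowered the median from 0.25 to 0.15. Without any one of the other 4 libraries 2 members still passed.

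In the other 9 models no member passed. MBT2, the second High model, had 35 of 37 positive differences, 26 of them below 0.05 unadjusted, and a median of 0.36. There Dtx3l was at 17.1, 17.2, 17.2, 17.5 and 18.7 FPKM in isotype tumours and 19.0, 22.1, 29.0, 29.5 and 33.3 after muDX400, and Usp18 at 10.4, 11.1, 11.5, 11.8 and 12.7 and then 13.3, 13.8, 20.2, 20.5 and 22.0. These were the only 2 members of MBT2 without overlap, against 2.77% of all genes tested. Samhd1 had the lowest adjusted p of a member in limma, 0.051. No gene of the whole MBT2 table passed (0% of 12541). Without muDX400 replicate 3, whose T-cell markers summed to 66.9 FPKM against 94.3 to 204 in the other treated tumours, 24 members passed upward, led by Samhd1 at 1.12 ± 0.13 and Zbp1 at 1.02 ± 0.13 (limma, adjusted p = 0.00191 and 0.00284), where 10.5% of 12467 genes passed upward and 10.3% downward in the same fit. Without muDX400 replicate 5, 6 members did, against 2.31% of genes upward. That choice of libraries was made after their values were seen.

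CM3, the third High model, had 29 positive differences and 12 below 0.05 unadjusted, with a median of 0.44 against 0.13 over all genes. Samhd1 was at 32.3, 54.1, 63.0, 67.9 and 225 FPKM in isotype tumours and 155, 156, 167, 168 and 177 after muDX400. The highest value belonged to isotype replicate 4, in which T-cell markers summed to 68.2 FPKM (14.7 to 25.6 in the other isotype libraries) and macrophage and monocyte markers to 2886 (335 to 646). Without that library, 16 members passed upward, from Xaf1 at 0.46 ± 0.12 to Parp14 at 1.65 ± 0.37, and Bst2 passed downward at -0.95 ± 0.24 (limma, adjusted p = 0.0176). In that fit, which kept isotype replicates 2 and 3 described below, 19.5% of 12789 genes passed upward and 11.3% downward. Replicate 4 was picked after its values were seen, and leaving out a high control raises the difference of the genes high in it. Bst2 was at 256, 324, 344, 657 and 663 FPKM in isotype tumours and 201, 232, 255, 263 and 264 after muDX400. The 2 highest values belonged to isotype replicates 2 and 3, whose FPKM summed over all genes to 784467 and 885333 against 525381 to 528393 in the other isotype libraries, and which had the fewest genes at 1 FPKM or more (12422 and 12137, against 12559 to 13165). The part of this in the Bst2 values was not tested. Without isotype replicate 3 the median of the members fell to 0.27, and 0 members passed. With all libraries no gene of the CM3 table passed (0% of 12945).

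Among the Partial models, CT26 had all 37 differences positive, 14 below 0.05 unadjusted and a median of 0.49, and 0.289% of its 12094 genes passed upward and 0.0496% downward. Its treated tumours were uneven. Irf7 was at 46.2, 51.7, 67.1, 79.9 and 80.4 FPKM in isotype tumours and 79.6, 80.6, 94.1, 158 and 211 after muDX400, and Zbp1 at 38.2, 39.1, 55.3, 56.9 and 69.3 and then 68.6, 69.0, 82.4, 174 and 202. The highest 2 values of both genes belonged to muDX400 replicates 1 and 3, whose T-cell markers summed to 91.2 and 101 FPKM against 26.9 to 37.4 in the other 3. Without muDX400 replicate 3 the median fell to 0.30, and at least 32 differences stayed positive with any library left out. EMT6 had 36 positive differences with none below 0.05 unadjusted and a median of 0.22, and MB49 had 31, 10 and 0.11. With a library left out these medians ran from 0.12 (without isotype replicate 5) to 0.37 (without muDX400 replicate 1) in EMT6 and from 0.05 (without muDX400 replicate 5) to 0.21 (without muDX400 replicate 4) in MB49. In MB49 the arms did not overlap for Isg20 (56.1, 57.3, 58.4, 58.6 and 63.9 FPKM, then 68.7, 73.1, 83.1, 83.2 and 86.6) and Xaf1 (29.3, 29.8, 31.3, 33.5 and 35.7, then 38.1, 39.2, 39.8, 41.4 and 52.0), against 1.06% of all genes tested there.

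Among the Resistant models, B16F10 had 32 of 33 tested members positive with a median of 0.48, but only 2 were below 0.05 unadjusted. The libraries of each arm spread widely, and without muDX400 replicate 2 the median was 0.76. Zbp1 there was at 0.361, 4.52, 7.09, 9.22 and 55.4 FPKM in isotype tumours and 0.397, 14.4, 15.4, 38.0 and 38.5 after muDX400. In LL2 12 of 34 tested members were positive with a median of -0.06, in 4T1 8 of 37 with a median of -0.13, and in TC1 10 of 37 with a median of -0.04. The unadjusted counts below 0.05 in limma were 2, 1 and 0 in these 3 models. The sign of the median depended on single libraries in LL2, where leaving out muDX400 replicate 1 gave 0.04 and isotype replicate 5 gave -0.18. The same held in TC1, where leaving out isotype replicate 5 gave 0.03 and muDX400 replicate 3 gave -0.16. In 4T1 it was -0.05 without muDX400 replicate 5. The number of positive differences ran from 6 to 20 in LL2, 3 to 22 in TC1 and 3 to 13 in 4T1. No gene passed in B16F10, LL2, 4T1, EMT6 or MB49 (0% in each), and 0.0802% did in TC1. In CM3, CT26, EMT6, 4T1, B16F10, LL2 and TC1 no member had treated libraries all above the controls, against 2.25%, 2.58%, 0.244%, 0.521%, 0.149%, 0.706% and 1.28% of all genes tested. None had them all below either, with 1.94% of genes in CT26 and 1.83% in LL2.

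**Figure D4:**
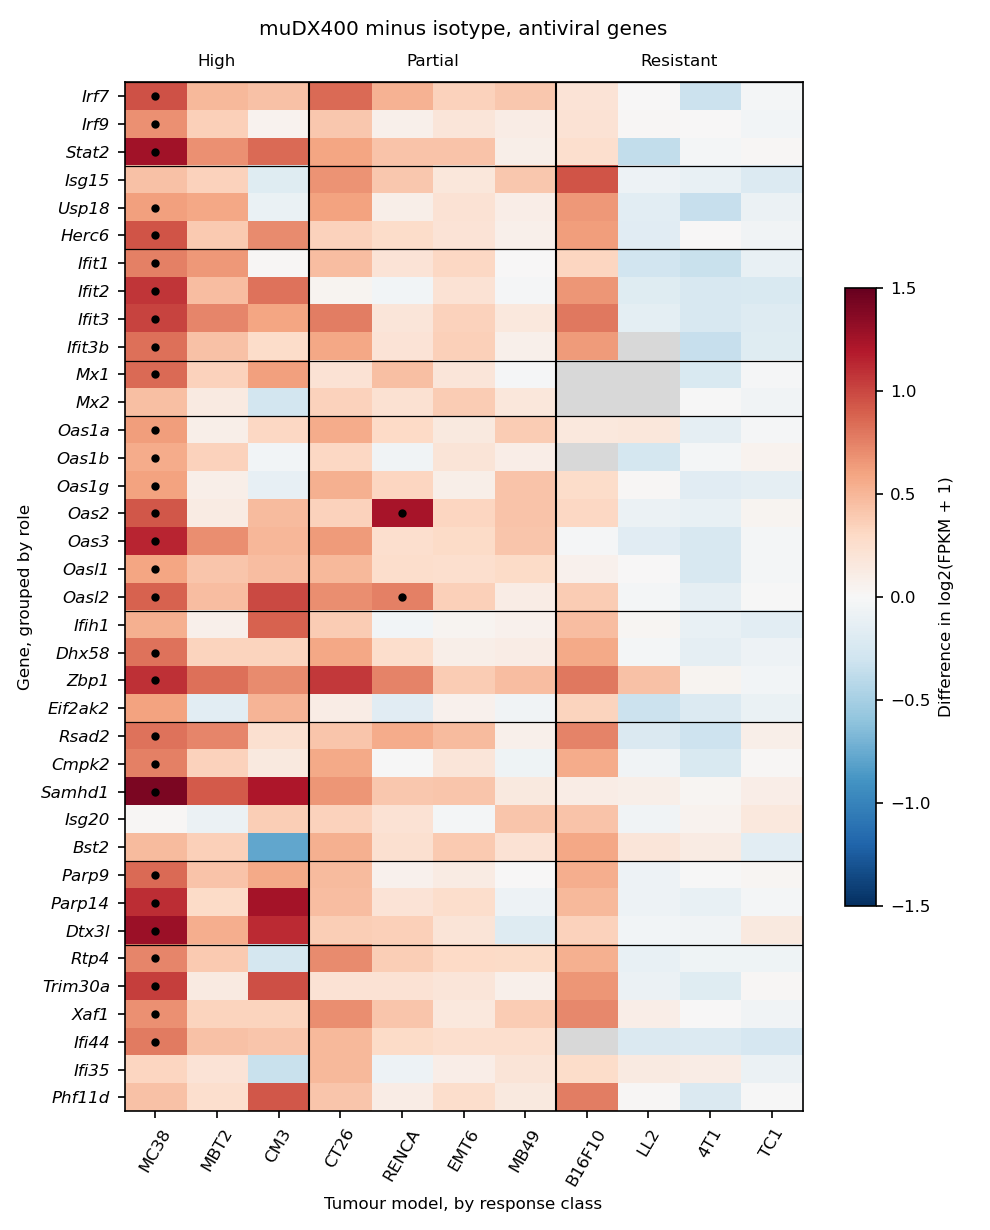
Difference between muDX400 and isotype tumours on the log2(FPKM + 1) scale (colour) for the 37 antiviral genes grouped by role (vertical axis) in the 11 models (horizontal axis); dots mark members past the threshold in limma and grey cells were not tested. MC38 holds 29 dots and RENCA 2.

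Averaged over all 11 models, 28 members rose and none fell, where 14.5% of 16187 genes rose and 8.57% fell, and the median member differed by 0.26. The largest were Zbp1 (0.59 ± 0.14), Samhd1 (0.50 ± 0.07), Oasl2 (0.41 ± 0.10) and Stat2 (0.38 ± 0.08; limma, adjusted p = 0.000628 for Zbp1 and 3.45e-07 for Samhd1). Without MC38 11 members rose and all 37 kept a positive difference, with a median of 0.21, where 8.75% of 16019 genes rose. The mean over all 11 models was fitted with the spread shared over 110 libraries. In this mean and in the class means the spread is that between tumours, so they speak of these lines. By class, 30 members rose in the mean of the High models, against 22.2% of 14596 genes (16.4% fell), with Samhd1 (1.18 ± 0.17), Dtx3l (0.98 ± 0.18), Stat2 (0.93 ± 0.17) and Parp14 (0.88 ± 0.20) in front. Without MC38 the High count was 11, where 7.8% of 13925 genes rose. In the mean of the Partial models 9 rose, against 3.56% of 14370 genes (1.22% fell): Zbp1 (0.66 ± 0.15), Oas2 (0.58 ± 0.16), Irf7 (0.53 ± 0.14), Oasl2 (0.48 ± 0.14), Rtp4, Xaf1, Isg15, Samhd1 and Oas1a. That count ran from 4 to 13 with a library left out, and it was 2 without the filter on low levels (1.18% of genes) and 1 with the replicate block (2.07%). In the mean of the Resistant models none passed in limma, none was below 0.05 unadjusted, and the median was 0.05 (0.01 without B16F10 muDX400 replicate 4 and 0.12 without B16F10 muDX400 replicate 2), with 0.0069% of 14488 genes passing upward.

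The difference between classes was tested itself. The mean effect of the 3 High models exceeded that of the 4 Resistant models for 19 members and was below it for none, where 18.9% of 15636 genes had the higher effect in High and 11.8% the lower, and 34 of 37 differences were positive with a median of 0.48. Samhd1 (1.10 ± 0.18), Stat2 (0.96 ± 0.19), Oas3 (0.90 ± 0.19) and Dtx3l (0.88 ± 0.18) differed most (limma, adjusted p = 1.33e-05, 0.000143, 0.000296 and 0.000313). The count fell to 11 without CM3 isotype replicate 3, to 10 with a pseudocount of 0.1 and to 9 without the filter on low levels. The spread in this test is that between tumours, so it speaks of these 7 lines. With the model as the replicate, no member passed the trend of the effect over the 3 classes in limma (lowest adjusted p = 0.0966), 18 were below 0.05 unadjusted, and no gene of 16187 passed (0%).

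The remaining comparison set isotype tumours against baseline tumours. Averaged over models, 33 members were lower in isotype tumours and none was higher, where 25.5% of 16879 genes were lower and 4.12% higher. The median was -0.33 over the members and -0.06 over all genes. Xaf1, a gene linked to apoptosis (-0.78 ± 0.09), Isg15 (-0.60 ± 0.09), Oasl2 (-0.50 ± 0.10) and Oas2 (-0.50 ± 0.08) differed most (limma, adjusted p = 3.39e-11, 3.57e-08, 7.64e-05 and 7.06e-07). Median-ratio scaling of the libraries left 25 members lower, and over all genes it moved the split from 695 higher and 4312 lower to 1661 and 2538. This comparison shares its isotype libraries with the muDX400 comparisons above.

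The difference was largest in CT26 and TC1, where the median member differed by -1.38 and -1.37. In TC1 Xaf1 was at 46.9, 48.6 and 50.4 FPKM in baseline tumours and 11.6, 12.5, 12.9, 15.5 and 17.4 in isotype tumours, and Isg15 at 143, 164 and 195 and then 47.1, 51.1, 51.3, 71.1 and 81.1. In CT26 Xaf1 was at 64.8, 84.5 and 93.0 and then 15.3, 16.8, 18.5, 20.0 and 23.7, and Isg15 at 109, 154 and 166 and then 28.9, 33.7, 38.6, 46.0 and 52.1. Every isotype library lay below every baseline library for all 37 members in TC1 and for 36 in CT26, against 29.7% and 22.6% of all genes. The same held for 21 of 35 tested in LL2, against 20.7%, and for 9 of 37 in MBT2, against 16.9%. RENCA and 4T1 had 4 of 37 each, against 19% and 14.2%. MC38 had 2, MB49 had 1 and B16F10 had 0 of 32 tested, against 8.69%, 6.92% and 5.11%. CM3 and EMT6 had 0, against 11.8% and 14.6%. LL2 had a median of -0.54, RENCA of -0.44, MC38 of -0.25, 4T1 of -0.23, MBT2 of -0.22 and B16F10 of -0.19. MB49 (0.09), CM3 (0.38) and EMT6 (0.41) went the other way, with 25, 30 and 35 of 37 differences positive. Without CT26 and TC1 only Xaf1 (-0.53 ± 0.11) and Isg15 (-0.37 ± 0.10) passed (limma, adjusted p = 8.39e-05 and 0.00406), where 16.9% of 16556 genes were lower in the same fit. The median was -0.12 over the members, with 36 of 37 differences negative, and -0.04 over all genes.

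**Figure D5:**
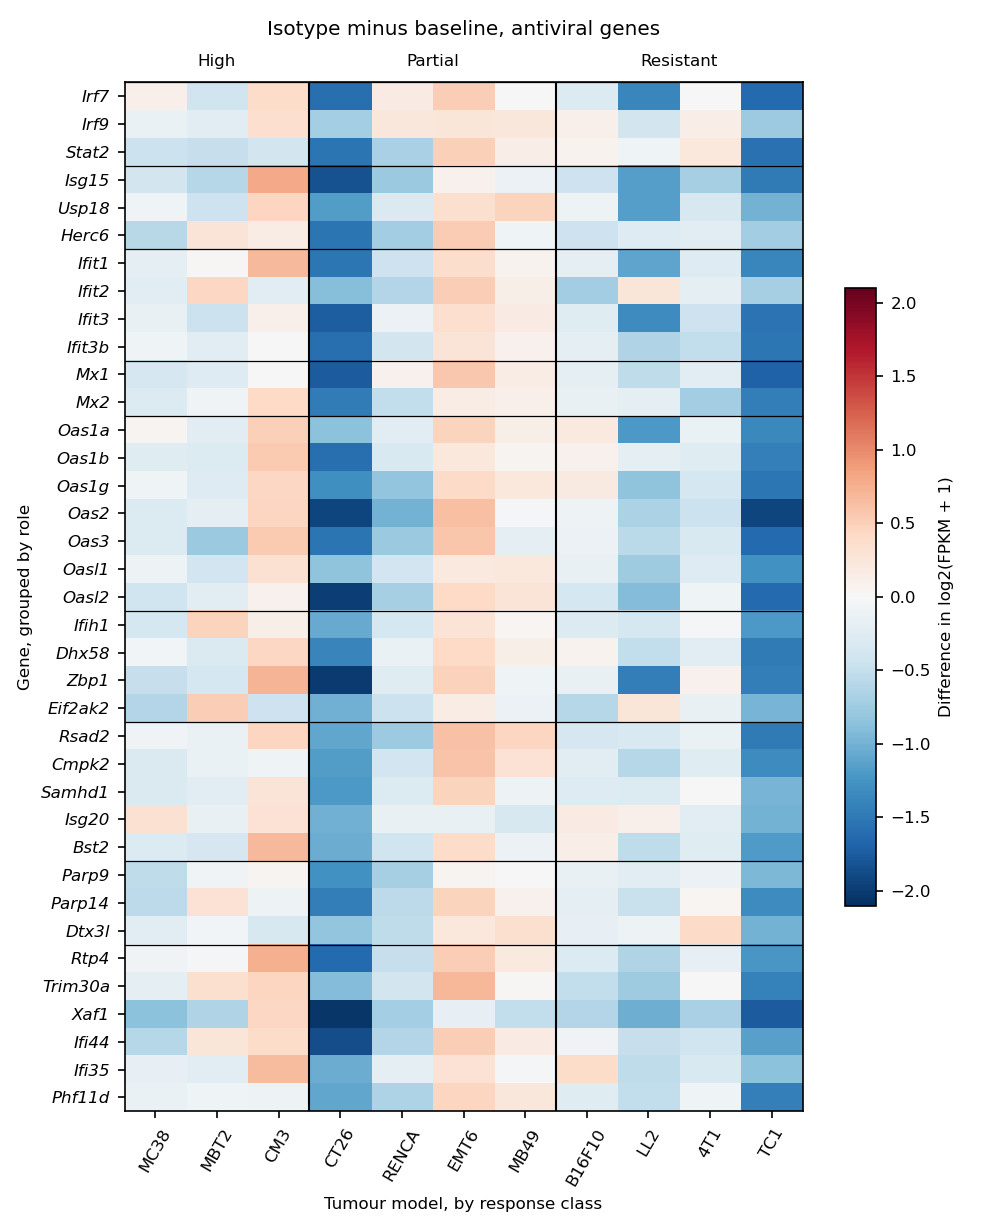
Difference between isotype and baseline tumours on the log2(FPKM + 1) scale (colour) for the 37 antiviral genes grouped by role (vertical axis) in the 11 models (horizontal axis). CT26 and TC1 are negative for all 37 genes, and EMT6 is positive for 35.

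Several measures moved with that difference. In TC1, T-cell markers summed to 8.17 to 12.5 FPKM in baseline and 1.84 to 3.89 in isotype tumours, NK-cell markers to 4.79 to 5.55 and 0.764 to 1.12, and macrophage and monocyte markers to 884 to 1100.1 and 372 to 583. In CT26 the T-cell sums were 31.9 to 81.7 and 16.2 to 33.9, and the NK-cell sums 11.1 to 14.5 and 3.02 to 5.25. The baseline libraries of TC1 were also among the 9 deeper ones. Baseline and isotype libraries carry sample numbers from different blocks in 9 of 11 models, so a difference of handling between blocks and the difference between the arms cannot be told apart there. In B16F10 and RENCA the arms share a block, but their baseline libraries were also among the 9 deeper ones. No member passed in limma in these 2 models, where 8.43% of 14110 genes were lower. The median was -0.32 over the members and -0.12 over all genes, and 34 of 37 differences were negative. The part of the markers and of depth in the result was not tested.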

How the data were processed

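Ribosomal RNA-depleted total RNA was sequenced from 143 tumours, per the labels' protocols. The authors deposited 1 table of FPKM values for 54232 Ensembl identifiers. The aligner, quantifier, genome build and annotation were not given in the sources used here. Depth was inferred from the value that 1 fragment adds to a gene. Symbols came from a RefSeq-based table, and 0 columns were left unused. Values were tested as log2(FPKM + 1) with limma 3.58.1 in R 4.3.3 (mean-variance trend, two-sided, Benjamini-Hochberg adjustment over all genes tested, threshold 0.05). Genes needed an FPKM of 1 in 5 libraries (3 for isotype against baseline), or as a mean in 3 models for level trends. Tables and figures used Python 3.11.15, numpy 2.4.6, pandas 2.3.3 and matplotlib 3.10.9.

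Within-model comparisons used that model's 10 treated and isotype libraries. Class means were fitted on the libraries of the class, not on all 110 as first planned, because simulated data gave many false calls with the shared spread. A treatment-by-model F test is not reported for the same reason. The High minus Resistant test was added after the data were seen. The members and lists were chosen with earlier results of these data known. Every member is named by role, 8 of them (Irf7, Isg15, Ifit1, Mx1, Oas2, Zbp1, Rsad2 and Parp14) with all libraries in the model with most calls, and otherwise the members with the largest changes past the threshold. Other members shown by library were chosen after their values were seen. Alternatives were a pseudocount of 0.1, no filter, median-ratio scaling, a shared spread, a replicate block and leaving out each library. Trends with class were also run with the block of sample numbers as a term.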

Additional observations from a re-analysis of the deposited data

Results flagged for a closer look

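Values of 8 antiviral genes and their mean were searched for a library standing apart within each of the 22 groups of 5, by the gap to the nearest library over the range of the group. Of 198 such groups 15 exceeded the critical value of 0.71. About 1 in 20 would do so for independent values with a normal distribution. FPKM of related genes in the same libraries need not be such values, so the count was not set against chance. In B16F10, isotype replicate 3 held 21.9 FPKM of Isg15 (4.64 to 7.75 in the others), 0.8645 of Mx1 (0.193 to 0.312) and 55.38 of Zbp1 (0.361 to 9.22). In CM3, isotype replicate 4 held 71.19 of Zbp1 (20.0 to 29.5) and muDX400 replicate 1 held 8.18 of Mx1 (5.64 to 6.05). In CT26, muDX400 replicate 3 held 29.91 of Ifit1 (8.01 to 14.1) and 14.97 of Rsad2 (3.82 to 5.97). In MB49, isotype replicate 1 held 8.625 of Oas2 (5.72 to 6.48), and muDX400 replicate 5 held 15.21 of Ifit1 (6.58 to 8.57) and 19.79 of Rsad2 (9.38 to 11.2). In MBT2, muDX400 replicate 1 held 32.32 of Parp14 (17.7 to 22.0). In RENCA, isotype replicate 1 was low for Parp14 at 6.625 (13.3 to 15.6), and muDX400 replicate 3 held 191.5 of Isg15 (81.7 to 89.5) and 176.9 of Zbp1 (120.0 to 135). In TC1, muDX400 replicate 3 held 78.6 of Isg15 (40.9 to 49.9).

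In the High minus Resistant test in limma, the muDX400 effect was larger in High for 19 members, against 18.9% of 15636 genes. The differences on the log2 scale were 1.10 for Samhd1, 0.96 for Stat2, 0.90 for Oas3, 0.88 for Dtx3l, 0.81 for Parp14, 0.78 for Ifit2, 0.73 for Oasl2, 0.72 for Ifit3, 0.66 for Mx1 and 0.65 for Ifi44. They were 0.61 for Trim30a, 0.58 for Herc6, 0.58 for Ifit1, 0.54 for Oasl1, 0.52 for Rsad2, 0.49 for Parp9, 0.48 for Ifit3b, 0.47 for Oas2 and 0.44 for Ifih1. The effect was lower in High for 11.8% of the genes tested. The count of 19 fell to 10 with a pseudocount of 0.1 and to 9 without the filter. With the model as the replicate, no member passed the trend of the effect with class.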

How the results depend on the processing

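No member past the threshold changed sign with a pseudocount of 0.1, without the filter or with median-ratio scaling. Signs were not compared in this way for the other runs. With the spread shared over 110 libraries, 11 members were higher and 1 lower in CM3, 1 was higher in MBT2, 1 in RENCA and 5 in the Partial mean, and the genes past the threshold numbered 2 in 4T1, 70 in B16F10, 6662 in CM3, 8 in EMT6, 6 in LL2, 71 in MB49, 241 in MBT2, 2629 in RENCA, 4 in TC1, 1078 in the Partial mean and 0 in the Resistant mean. Without the filter, 0 members were higher in RENCA, 2 in the Partial mean and 9 in High minus Resistant, and the genes numbered 1 in each of CM3, EMT6, LL2, MBT2 and TC1, 21 in CT26, 127 in RENCA and 2 in the Resistant mean. With a pseudocount of 0.1, 10 members were higher in High minus Resistant and 0 genes passed in the Resistant mean. Median-ratio scaling gave 149 genes in CT26 and shifted the median of all genes by -0.14 in CM3. The main fits did not pair same-numbered muDX400 and isotype libraries, because the labels name no pairs. Correlations of their deviations ran from -0.67 to 0.64 and no model had all 5 pairs over 0.1. CM3, LL2 and MC38 had 3 of 5 over 0.1, and such correlations cannot exclude pairing. The replicate block gave 1 member in RENCA and 1 in the Partial mean, and 0 genes in CT26, 1 in MB49, 168 in RENCA, 16 in TC1, 363 in the Partial mean and 0 in the Resistant mean, with 29 members in MC38. Without MC38, 11 members were higher in the mean over models and 11 in the High mean (1922 and 1637 genes). Isotype against baseline gave 0 lower members in B16F10 and RENCA alone (1420 genes) and 2 without CT26 and TC1 (3264). Leaving out 1 library at a time gave 0 to 16 higher and 0 to 1 lower members in CM3 (0 to 3942 genes), 0 to 24 in MBT2 (0 to 2595), 21 to 32 in MC38 (1769 to 4159; 21 without muDX400 replicate 3), 0 to 2 in RENCA (95 to 758), 25 to 33 in the mean (3449 to 4692), 30 to 32 in High (4963 to 7098), 4 to 13 in Partial (491 to 1644), 11 to 22 in High minus Resistant (4081 to 6268) and 32 to 35 lower against baseline (4745 to 5419). It gave 4 to 125 genes in CT26, 0 to 101 in LL2, 0 to 36 in TC1 and 1 to 2 in the Resistant mean, and leaving out a model gave 0 to 1 gene in each level trend. The cause of these shifts was not tested.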
